A study of Mus musculus and Homo sapiens with 67 samples.

Results

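Ribosome biogenesis genes were followed in pancreatic cancer models given an EZH2 inhibitor, a RAS inhibitor or both. The set held 46 genes, found by matching their symbols, ignoring case, in each of 4 expression tables, and all 46 were present and passed the filter on low values in every table, out of 13358 genes tested in PSN1 cells, 12913 in SW1990 cells, 12567 in KPC cells and 13545 in KPC tumours. The established lines PSN1 and SW1990 come from human pancreatic cancers. KPC cells are a mouse pancreatic cancer line, and the KPC tumours were grown in the mouse pancreas (the orthotopic model). Each table had 4 arms: control, which was DMSO in cells and vehicle in mice, tazemetostat, RMC-6236, and tazemetostat with RMC-6236 (the combination). Tazemetostat blocks EZH2, the enzyme that places the repressive H3K27 methyl mark, and RMC-6236 binds and blocks RAS in its GTP-bound, active state. There were 3 samples per arm in the 3 cell tables and 4 per arm in tumours, 52 of the 67 labelled samples, and 15 subcutaneous tumour samples were not analysed here. The labels gave no dose, treatment time, mouse strain or age, and did not say whether cell samples were separate cultures. The p-values thus set differences between arms against the spread of these samples alone, and that spread may be technical.

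A ribosome is built in the nucleolus. RNA polymerase I copies ribosomal DNA into a long precursor RNA, small nucleolar ribonucleoproteins (snoRNPs) guide its chemical modification, and the small-subunit processome and a separate set of large-subunit factors fold, cut and assemble it into subunits. Growing cells spend much of their transcription on this route, and many of its genes are textbook targets of the transcription factor MYC, whose level RAS signalling raises. By role, 3 of the 46 genes serve RNA polymerase I transcription, 3 are box C/D snoRNP proteins and 3 are box H/ACA snoRNP proteins. Another 6 are multifunctional nucleolar proteins, 15 act on the small subunit and 16 on the large subunit.

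Values are FPKM, the authors' measure of fragments per kilobase of transcript, scaled to the total of the library. Read depth is unknown, because FPKM keep no read totals. The number of genes at 1 FPKM or more was 11632 to 12772 in PSN1 libraries, 11489 to 12306 in SW1990, 11673 to 11947 for KPC cells and 12386 to 13414 for tumours. Epithelial keratins were abundant in each model, while the cadherin CDH1 was at only 1.45 ± 0.098 FPKM (SD, n = 3) in PSN1 controls. Changes are given as log2 changes of FPKM + 1 with their standard errors, a scale that understates the change of low genes, and a gene was called changed at a limma p under 0.05 after Benjamini-Hochberg adjustment over all genes of its table.

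In the controls the most abundant of the 46 was NPM1 (nucleophosmin, a histone and ribosome chaperone), at 399 ± 5.9 FPKM in PSN1, 189.5 ± 10.5 in SW1990 and 254 ± 1.8 in KPC cells, and at 162 ± 14 in tumours (SD, n = 3 in cells and 4 in tumours). NCL (nucleolin, which binds the precursor RNA) came next in the human lines at 268 ± 1.9 and 122 ± 6.9 FPKM. In the mouse tables the nucleolar protein Mybbp1a came second, at 79.4 ± 2.2 FPKM in KPC cells and 53.2 ± 4.7 in tumours, followed by Ncl at 74.5 ± 0.67 and 50.1 ± 2.4. The means of Mybbp1a and Ncl in tumours differed by less than the spread of Mybbp1a. The least abundant were UTP15, a small-subunit processome protein, in PSN1 (7.51 FPKM) and SW1990 (2.72), and Wdr12, a large-subunit factor, in KPC cells (3.75) and tumours (2.77).

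Promoter sequences were at hand for the mouse genes, and they are shown because the set moved together under RMC-6236. RefSeq promoters of build GRCm38.p6, each 300 bases long with 250 before the start site, were matched to 41 of the 46 genes. The canonical E-box CACGTG, the site that MYC with MAX can bind and which reads the same on both strands, was present in 9 of the 41 (22.0%). The same window held it in 12.0% of the 9090 genes with a promoter entry that passed the filter in KPC cells, and in 8.09% of all 27025. The ETS-type motif CCGGAAG, on either strand, was in 34.1% of the 41 against 21.3% and 9.93%. Neither motif contains the other. The E-boxes lay in Mybbp1a, Nop2, Pes1, Pno1, Rrn3, Tsr1, Utp20, Utp4 and Wdr43, with a pair of matches in Rrn3. The windows around them in Nop2 and Rrn3 follow, each on the plus strand and 5′ to 3′ with the E-box in capitals.
Nop2, chr6:125131813-125131838: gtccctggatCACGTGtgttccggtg
Rrn3, chr16:13780474-13780499: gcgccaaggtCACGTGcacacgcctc
Rrn3, chr16:13780641-13780666: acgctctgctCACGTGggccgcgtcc

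For contrast, the 100 bases before the start site are shown for Nop2, which holds the motif, and for Lyar, which fell most in KPC cells under RMC-6236 and has no CACGTG in its window, again on the plus strand of GRCm38.p6 from RefSeq with the E-box in capitals.
Nop2, chr6:125131783-125131882: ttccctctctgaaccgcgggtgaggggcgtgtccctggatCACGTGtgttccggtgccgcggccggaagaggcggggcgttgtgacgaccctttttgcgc
Lyar, chr5:38220382-38220481: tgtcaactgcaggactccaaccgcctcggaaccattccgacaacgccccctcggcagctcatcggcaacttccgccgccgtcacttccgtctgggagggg

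Whether the RAS inhibitor altered this route was addressed by RMC-6236 against control. All 46 genes were lower with RMC-6236 in PSN1 cells and all 46 in SW1990 cells, and 45 of 46 in KPC cells, with none higher. Over all genes tested the share called lower was 34.6% in PSN1, 41.7% in SW1990 and 35.8% in KPC cells, and the share called higher was 45.8%, 30.7% and 37.9%. The median log2 change of the 46 was -1.25, -1.26 and -0.86, where the median of all genes was 0.08, -0.06 and 0.02. The median gene was thus left at 39.7%, 35.5% and 52.3% of its control FPKM. A fall of 1 log2 unit or more was called for 33, 35 and 13 of the 46, beside 5.02%, 4.55% and 4.62% of all genes. The 3 RMC-6236 samples lay below the 3 controls for 46, 46 and 45 genes, beside 34.8%, 41% and 36.7% of all genes. Rescaling libraries by the median ratio of their genes moved the median of all SW1990 genes by 0.11 on the log2 scale, and all 46 stayed lower there. SW1990 RMC-6236 replicate 1 stood apart, with 11535 genes at 1 FPKM or more and a median log2 value of 2.42 over the genes tested, where the other RMC-6236 libraries had 11899 and 11911 genes and 2.58 and 2.57. Without it all 46 were again called lower, with a median of -1.19.

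The 46 genes together held 0.870 ± 0.0067% of all FPKM in PSN1 controls and 0.363 ± 0.0032% with RMC-6236 (SD, n = 3). In SW1990 the share went from 0.434 ± 0.013% to 0.177 ± 0.0045%, and in KPC cells from 0.495 ± 0.0053% to 0.263 ± 0.0034%. No RMC-6236 library reached the lowest control in any line. The share of FPKM on mitochondrial genes also differed between these arms, at 22.7 to 23.2% in PSN1 controls and 24.2 to 25.2% with RMC-6236, 26.6 to 28.0% and 31.6 to 32.5% in SW1990, and 9.84 to 10.3% and 11.7 to 12.3% in KPC cells. With mitochondrial genes left out, the 46 genes held 1.13 ± 0.0083% in PSN1 controls and 0.481 ± 0.0043% with RMC-6236, 0.597 ± 0.012% and 0.2605 ± 0.0054% in SW1990, and 0.551 ± 0.0042% and 0.2997 ± 0.0030% in KPC cells.

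**Figure D1:**
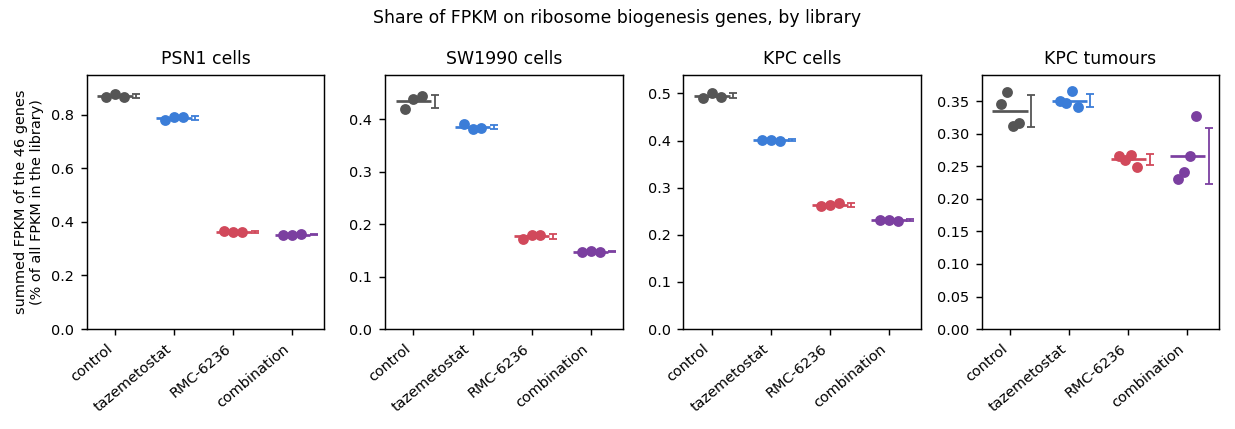
Share of all FPKM held by the 46 genes (%, axis from 0) in each library of the 4 arms, 1 panel per table; points are libraries, lines are arm means and bars are SD (n = 3 in cells, 4 in tumours). The RMC-6236 and combination libraries lie below all control libraries in the 3 cell tables, and 1 combination tumour at 0.327% lies among the controls.

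Among the genes for RNA polymerase I transcription, POLR1B, the second-largest subunit of the enzyme, moved most. It was at 16.6, 16.5 and 16.1 FPKM in the PSN1 controls and at 5.22, 4.99 and 4.77 with RMC-6236, a log2 change of -1.54 ± 0.04 (limma adjusted p = 1.9e-12). In SW1990 it went from 11.8, 13.0 and 12.7 to 2.98, 3.21 and 3.56 FPKM (-1.67 ± 0.05, adjusted p = 1.6e-11), and in KPC cells Polr1b from 11.2, 10.8 and 11.1 to 5.27, 5.62 and 5.42 (-0.90 ± 0.05, adjusted p = 1.7e-09). The arms did not overlap in any line. POLR1A, the largest subunit, changed less in PSN1, from 12.9, 13.0 and 13.1 to 9.37, 8.93 and 9.68 FPKM (-0.44 ± 0.03), and by -0.99 ± 0.05 in SW1990 and -0.64 ± 0.03 in KPC cells. RRN3, the initiation factor TIF-IA that brings the polymerase to its promoter and one of the genes with an E-box shown above, went from 20.4, 20.8 and 21.7 to 13.6, 13.8 and 14.5 FPKM in KPC cells (-0.56 ± 0.04, adjusted p = 5.3e-08). Its changes in PSN1 and SW1990 were -0.62 ± 0.03 and -0.86 ± 0.08.

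The snoRNP proteins fell in each line. NOP56, a core protein of the box C/D particles that guide ribose methylation, was at 162, 157 and 163 FPKM in PSN1 controls and 55.4, 56.1 and 56.1 with RMC-6236 (-1.51 ± 0.02, adjusted p = 2.3e-15). The corresponding values were 42.4, 43.5 and 42.6 against 13.6, 14.5 and 14.4 in SW1990 (-1.53 ± 0.03), and 72.4, 75.6 and 73.3 against 24.1, 23.3 and 23.1 in KPC cells (-1.61 ± 0.03). In all 3 lines the arms were far apart, and RMC-6236 left about 31.9 to 34.8% of the control level. FBL (fibrillarin, the methyltransferase of these particles) fell by 0.99 in PSN1, 0.99 in SW1990 and 1.06 in KPC cells, and NOP58 by 1.43, 1.11 and 0.92.

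Of the box H/ACA proteins, DKC1 (dyskerin, the pseudouridine synthase) fell by 1.71 in PSN1, 1.40 in SW1990 and 1.54 in KPC cells. In KPC cells Dkc1 was at 12.8, 13.1 and 13.5 FPKM in controls and 3.67, 3.99 and 3.90 with RMC-6236, with no overlap. Its partner NHP2 differed between lines in size. It went from 70.4, 63.1 and 65.6 to 51.4, 43.9 and 45.2 FPKM in SW1990 (-0.49 ± 0.06, adjusted p = 5.9e-06), the smallest change of the 46 there, and from 67.3, 65.7 and 66.4 to 28.2, 23.3 and 25.7 in KPC cells (-1.34 ± 0.05, adjusted p = 1e-10). The difference between the lines was not tested, since the tables were normalized separately. GAR1, another protein of these particles, fell by 1.06, 0.58 and 1.06 in PSN1, SW1990 and KPC cells.

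The multifunctional nucleolar proteins included the largest fall in PSN1 and in KPC cells, but not in SW1990. LYAR, a nucleolar zinc finger protein that takes part in precursor RNA processing, was at 35.5, 38.0 and 34.5 FPKM in PSN1 controls and 7.93, 7.65 and 7.75 with RMC-6236 (-2.07 ± 0.04, adjusted p = 9.5e-14). Lyar in KPC cells went from 39.7, 38.6 and 39.9 to 8.53, 9.19 and 9.16 FPKM (-2.02 ± 0.04, adjusted p = 4e-13), and LYAR in SW1990 fell by 1.79. RMC-6236 left 21.6%, 22.7% and 24.1% of the control level in PSN1, KPC cells and SW1990. NOLC1, a chaperone of snoRNPs, fell by 1.72, 1.54 and 1.38 in PSN1, SW1990 and KPC cells, and MYBBP1A by 1.66 and 1.55 in the human lines, while Mybbp1a in KPC cells was left at 49.4% of its control level. The abundant NPM1 changed less, from 395.3, 405.4 and 395.1 to 220.7, 216.9 and 217.4 FPKM in PSN1 (-0.87 ± 0.01), and by -0.80 ± 0.05 in SW1990 and -0.63 ± 0.02 in KPC cells, again without overlap. The RNA helicase DDX21 was among the 3 lowest changes in PSN1, where it went from 63.7, 64.5 and 64.3 to 18.4, 18.5 and 18.6 FPKM (-1.74 ± 0.02).

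All 15 small-subunit factors were lower in each line. RRP9, the protein that binds the U3 snoRNA of the processome, went from 66.5, 64.8 and 62.9 to 16.9, 16.8 and 17.3 FPKM in PSN1 (-1.87 ± 0.03, adjusted p = 1.1e-14) and from 26.7, 23.7 and 25.1 to 5.28, 5.76 and 5.06 in SW1990 (-2.04 ± 0.06, adjusted p = 6.1e-12). Rrp9 in KPC cells went from 13.7, 13.4 and 12.8 to 5.34, 5.44 and 4.73 (-1.21 ± 0.06). Every RMC-6236 value was below every control value. NOB1, the endonuclease that makes the final cut of the small-subunit RNA, was among the 3 smallest changes in PSN1 at -0.52 ± 0.04, and was -0.95 ± 0.05 in SW1990 and -0.41 ± 0.07 in KPC cells. The median change of the 15 was -1.13 in PSN1, -1.24 in SW1990 and -0.82 in KPC cells.

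The 16 large-subunit factors had medians of -1.25, -1.28 and -0.78 in the same order. RRS1, which helps bring the 5S RNA particle into the large subunit, differed in size of change between the lines, a difference that was not tested. In SW1990 it stood at 48.1, 45.5 and 46.5 FPKM in controls and 9.39, 10.9 and 10.8 with RMC-6236 (-2.07 ± 0.06, adjusted p = 5.2e-12), and in PSN1 at 39.1, 42.3 and 39.6 against 11.7, 13.3 and 12.1 (-1.63 ± 0.05). In KPC cells Rrs1 was at 41.5, 38.8 and 42.9 FPKM in controls and 40.6, 41.5 and 40.8 with RMC-6236, so the arms overlapped and the change was -0.003 (adjusted p = 0.96). Rrs1 was the 1 gene of the 46 not called lower in KPC cells.

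BOP1 and PES1 are partners with WDR12 in the PeBoW complex, which is needed for large-subunit RNA processing. BOP1 fell by 1.70 in PSN1, 1.45 in SW1990 and 0.86 in KPC cells. PES1 fell by 1.03, 1.13 and 0.37, and WDR12 by 0.81, 1.03 and 0.77. MRTO4, a large-subunit assembly factor, was among the 3 lowest in SW1990, from 32.4, 30.3 and 29.6 to 7.62, 8.08 and 7.25 FPKM (-1.88 ± 0.05). FTSJ3, a methyltransferase that acts in precursor processing, had the smallest change in PSN1, from 21.8, 22.8 and 21.9 to 15.94, 16.75 and 16.05 (-0.43 ± 0.03). Even there the arms did not overlap. In KPC cells the smallest called changes were those of Rrp1 (-0.26) and Pes1 (-0.37).

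**Figure D2:**
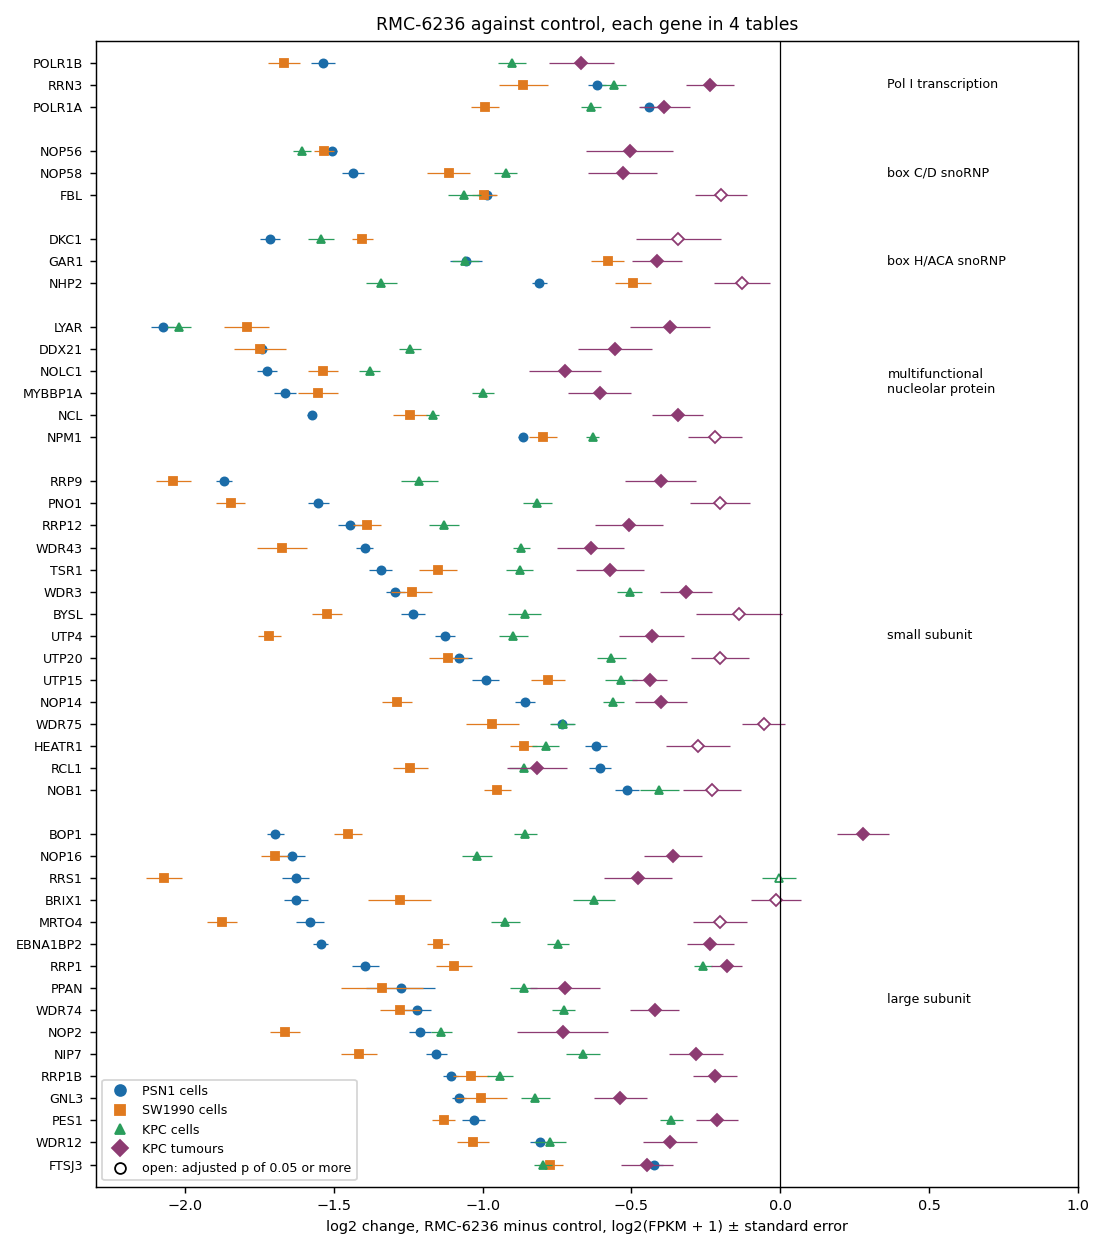
Log2 change of each gene under RMC-6236 (x axis, log2(FPKM + 1), RMC-6236 minus control, bars are standard errors), grouped by role on the y axis, with 1 symbol per table; open symbols did not pass the adjusted p of 0.05. All PSN1 and SW1990 symbols lie left of 0, Rrs1 of KPC cells lies at -0.003, and Bop1 of the tumours lies right of 0 at 0.28.

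The order of the 46 genes by their RMC-6236 change was most alike in the human lines. Across the 46 genes, Pearson's r was 0.73 and Spearman's rho 0.78 between PSN1 and SW1990, 0.44 and 0.48 between PSN1 and KPC cells, and 0.23 and 0.36 between SW1990 and KPC cells. These describe genes that share libraries within each table, and the tables share no samples. Between KPC cells and KPC tumours r was 0.23 and rho 0.32. In KPC cells the median change was -0.87 for the 9 genes with CACGTG (range -1.14 to -0.37) and -0.86 for the 32 without (range -2.02 to -0.26). Nop2, a methyltransferase of the large-subunit RNA whose E-box is shown above, had the lowest value of the 9, from 51.6, 51.2 and 53.4 to 22.2, 23.1 and 24.1 FPKM (-1.14 ± 0.04).

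In the orthotopic KPC tumours the same comparison gave changes nearer to 0, a difference from the cell tables that was not tested. With RMC-6236, 33 of the 46 genes were called lower (19.2% of all genes were) and 1, Bop1, higher (20.3% of all genes). The median log2 change was -0.37 (0.01 over all genes), the median gene kept 74.8% of its control FPKM, and none fell by 1 log2 unit (1.88% of all genes did). In 39 of the 46 the 4 RMC-6236 tumours lay below the 4 controls, beside 19.2% of all genes. In such bulk tissue, fewer cells of a type and less RNA per cell cannot be told apart. The 46 genes held 0.334 ± 0.025% of FPKM in control tumours and 0.2604 ± 0.0081% with RMC-6236 (SD, n = 4).

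By role, the calls in tumours were 3 of 3 genes for RNA polymerase I, 2 of 3 box C/D and 1 of 3 box H/ACA proteins, 5 of 6 multifunctional proteins, and 9 of 15 small-subunit and 13 of 16 large-subunit factors. Polr1b was at 8.29, 10.02, 7.38 and 7.92 FPKM in control tumours and 5.68, 4.68, 4.89 and 4.35 with RMC-6236 (-0.67 ± 0.11, adjusted p = 0.00029). Nolc1 went from 25.5, 25.3, 22.7 and 22.6 to 14.8, 15.1, 14.9 and 11.9 FPKM (-0.72 ± 0.12, adjusted p = 0.00036). Neither gene's arms overlapped. The largest change was that of Rcl1, a protein of small-subunit precursor cleavage, from 16.38, 15.97, 16.76 and 16.32 to 10.7, 8.32, 7.85 and 8.79 (-0.82 ± 0.10, adjusted p = 3.1e-05). Nop2 went from 23.8, 30.2, 23.8 and 23.7 to 16.54, 16.01, 16.13 and 11.28 FPKM (-0.73 ± 0.15, adjusted p = 0.0018), and the large-subunit factor Ppan fell by 0.72. Control tumour 2 was the highest and RMC-6236 tumour 4 the lowest for Nop2, and the arms did not overlap.

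The box H/ACA gene Dkc1 illustrates those that missed the threshold. It was at 8.65, 9.28, 6.97 and 7.13 FPKM in controls and 6.73, 5.89, 6.72 and 5.05 with RMC-6236, without overlap but with a change of -0.34 ± 0.14 (adjusted p = 0.071). Nhp2 (-0.13, adjusted p = 0.30), Npm1 (-0.22, adjusted p = 0.066), Brix1 (-0.01, adjusted p = 0.91) and Wdr75 (-0.06, adjusted p = 0.57) were also not called. Rrs1, not called in KPC culture, went from 25.81, 29.99, 24.15 and 24.92 to 19.2, 17.6, 20.9 and 16.5 FPKM in tumours (-0.48 ± 0.11, adjusted p = 0.0044), again without overlap.

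Bop1 moved the other way. It was at 24.6, 24.7, 23.1 and 22.6 FPKM in control tumours and 28.2, 26.2, 32.9 and 29.0 with RMC-6236, a change of 0.28 ± 0.09 (adjusted p = 0.019). All 4 treated tumours were above all 4 controls, as in 17.7% of all genes. The call was lost without RMC-6236 replicate 3 (0.22, adjusted p = 0.067) and without control replicate 4 (0.26, adjusted p = 0.050). Of the 33 lower calls 27 held whichever library was left out. The other 6 were Ebna1bp2, Lyar, Nip7, Pes1, Rrn3 and Rrp1b, and for Lyar (-0.37, adjusted p = 0.040) the adjusted p then reached 0.11.

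**Figure D3:**
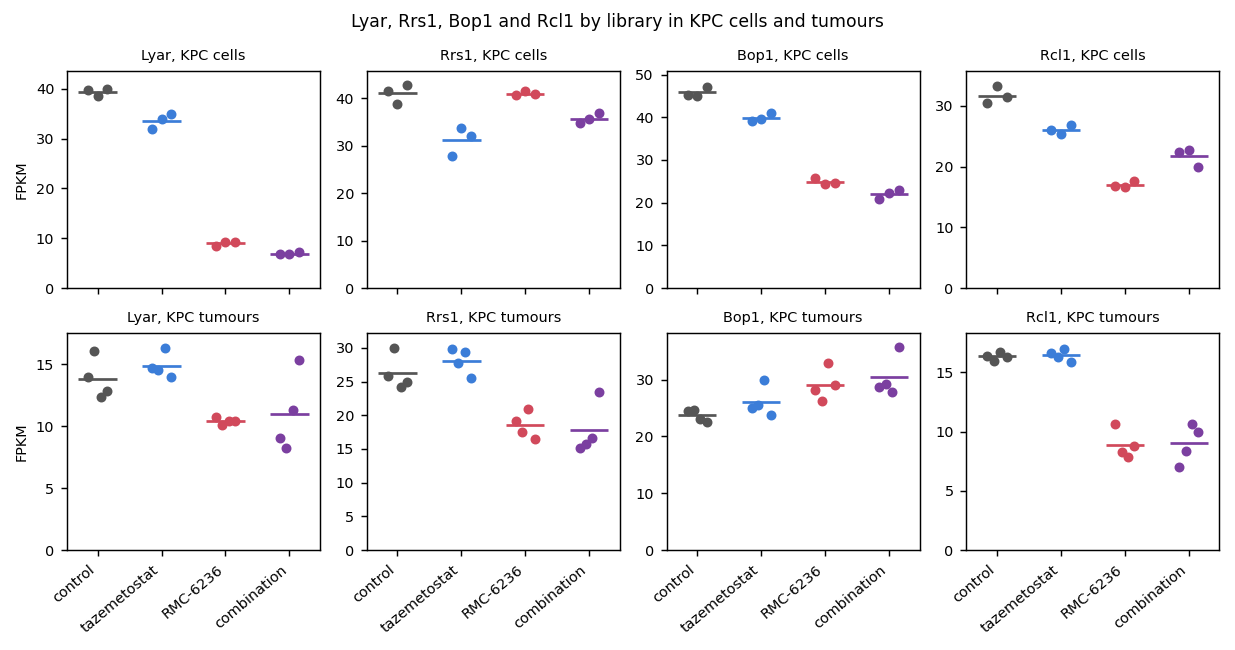
FPKM (axes from 0) of Lyar, Rrs1, Bop1 and Rcl1 in each library of the 4 arms, KPC cells above and KPC tumours below; points are libraries and lines are arm means (n = 3 in cells, 4 in tumours). Lyar and Rcl1 are lower with RMC-6236 in both, Rrs1 with RMC-6236 in cells lies at 40.6 to 41.5 FPKM, within the control range, and Bop1 is lower in cells but higher in tumours.

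Cell type markers in the tumours moved with the same arms. Of 6 pancreatic epithelial markers 4 were lower with RMC-6236, and their summed FPKM was 3111 to 3882 in controls, 2812 to 5153 with tazemetostat, 1445 to 2022 with RMC-6236 and 840.5 to 1399 with the combination. Of 10 fibroblast markers 7 were higher, with sums of 868 to 1180.3 in controls and 3027 to 4046 with RMC-6236. Of 10 macrophage markers 9 were higher, with sums of 466 to 595 and 1147 to 1653. No marker of these lists was at 0 throughout an arm. The part of these marker changes in the lower ribosome biogenesis values of the tumours was not tested. Median fibroblast sums also rose with RMC-6236 in culture, from 29.8 to 118 FPKM in PSN1, 2.22 to 5.95 in SW1990 and 41.8 to 67.8 in KPC cells. The median epithelial sum went from 3392 to 2869 FPKM in KPC cells, 606 to 920 in PSN1 and 1723 to 1719 in SW1990. How far these sums follow cell makeup was not tested. In the cell lines the complement genes C1QA, C1QB and C1QC, markers of macrophages, were at 0 in all 3 controls of PSN1 and SW1990. Other macrophage markers were not: the 9 found there summed to 6.26 to 9.27 FPKM in PSN1 controls and 35.9 to 39.6 in SW1990 controls.

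**Figure D4:**
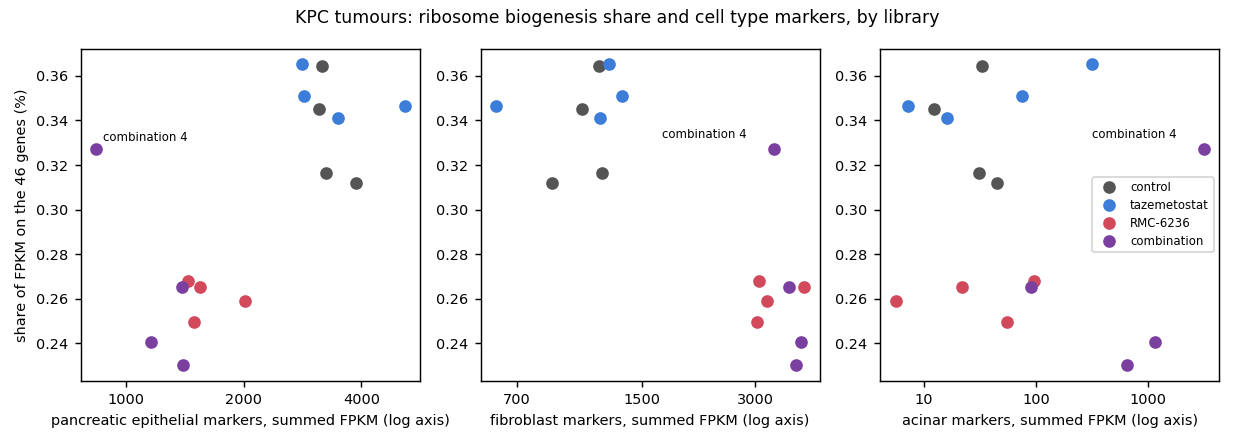
Share of FPKM on the 46 genes (y axis, %, not starting at 0) against the summed FPKM of epithelial, fibroblast and acinar markers (x axes, log scale) in the 16 tumour libraries, coloured by arm. RMC-6236 libraries lie at fibroblast sums of 3027 to 4046 and shares of 0.250 to 0.268%, and combination replicate 4 stands apart with a share of 0.327%, the lowest epithelial sum (840.5) and the highest acinar sum (3203).

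Tazemetostat against control asked what EZH2 inhibition alone did to the set. In culture the 46 genes were mostly a little lower. In PSN1, 31 were called lower and 1 higher (22.5% and 23.6% of all genes), in SW1990 25 lower and none higher (14.4% and 23.1%), and in KPC cells 44 lower and none higher (25.5% and 18.6%). Medians were -0.16, -0.18 and -0.30, where all genes had 0.00, 0.04 and -0.04, and the median gene kept 89.2%, 87.0% and 79.8% of its control level. Called lower in all 3 lines were 15 genes, among them POLR1A, POLR1B, NPM1, NOLC1, RRP9, NOB1, PNO1 and PES1. The 15 genes shared by PSN1 and SW1990 were 48.4% of the PSN1 calls and 60.0% of the SW1990 calls, shares below the 54.3% and 67.4% of all 46 genes called in SW1990 and PSN1, so the lists overlapped no more than their lengths alone would give.

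The changes with tazemetostat were largest in KPC cells. Polr1b went from 11.2, 10.8 and 11.1 to 7.30, 7.92 and 7.09 FPKM there (-0.51 ± 0.05, adjusted p = 2.7e-06), and Nop2 from 51.6, 51.2 and 53.4 to 37.2, 38.4 and 37.5 (-0.46 ± 0.04, adjusted p = 6.2e-07). Ppan, Gnl3 (nucleostemin, a nucleolar GTP-binding protein) and Dkc1 followed at -0.45, -0.40 and -0.40, and Bysl and Rrp1 were not called. In PSN1 the largest were RRP1B at -0.38 ± 0.03 (adjusted p = 1.1e-07) and LYAR at -0.31 ± 0.04, and in SW1990 NIP7 and MRTO4, both at -0.41. NIP7 and RRP1B are large-subunit factors. Rrs1, which was not called with RMC-6236 in KPC cells, was lower with tazemetostat there, at 27.8, 33.7 and 31.9 against 41.5, 38.8 and 42.9 FPKM (-0.39 ± 0.06, adjusted p = 0.00014). NHP2 was the exception in PSN1, going from 56.6, 57.8 and 56.9 to 62.8, 64.0 and 61.2 FPKM (0.13 ± 0.02, adjusted p = 0.00081), with all treated samples above the controls. The box H/ACA genes DKC1 (-0.02) and GAR1 (0.05) were not called in PSN1, while all 3 were lower in KPC cells.

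In tumours no member was called with tazemetostat, and neither was any of the 13545 genes (0% in either direction). At an unadjusted limma p under 0.05 there were 2 members higher and 0 lower, and the smallest adjusted p of the 46 was 0.65. The median was 0.09 (0.01 over all genes), with 41 of the 46 on the positive side, and in 4 genes all 4 treated tumours were above the controls (3.26% of all genes). Npm1, for example, was at 164.8, 180.1, 149.9 and 152.6 FPKM in controls and 175.4, 195.7, 186.4 and 188.1 with tazemetostat (0.21 ± 0.09, adjusted p = 0.65), and these ranges overlapped.

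**Figure D5:**
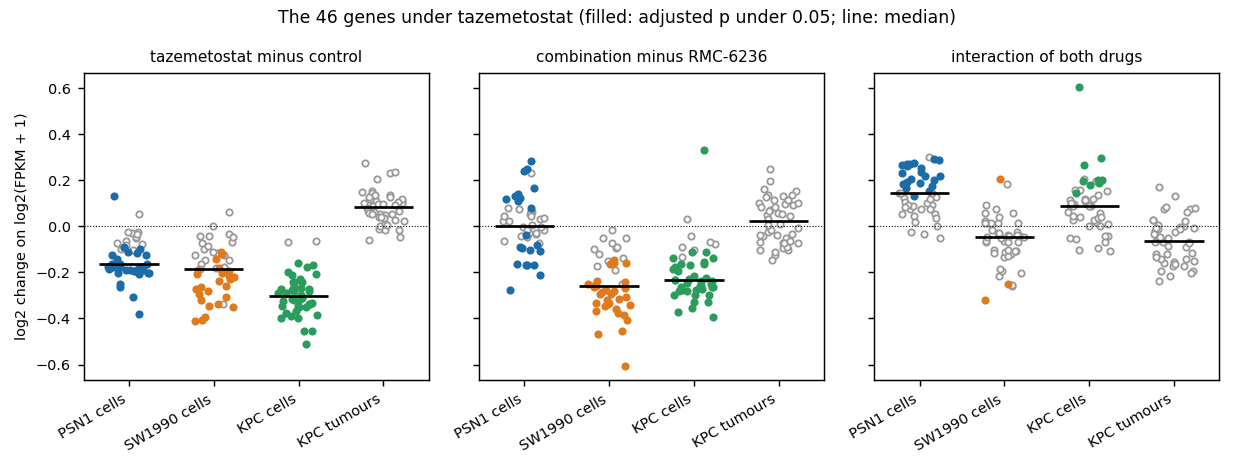
Log2 changes (y axis, log2(FPKM + 1)) of the 46 genes in the 4 tables for tazemetostat minus control, combination minus RMC-6236 and the interaction; each point is a gene, filled where the limma adjusted p was under 0.05, and lines are medians. The medians for tazemetostat lie at -0.16, -0.18 and -0.30 in the cell lines and 0.09 in tumours, and those for the combination against RMC-6236 at 0.00, -0.26, -0.23 and 0.02.

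The combination against RMC-6236 asked what tazemetostat added to the RAS inhibitor. In SW1990, 33 of the 46 were lower still and none higher (18.3% and 29.8% of all genes), and in KPC cells 38 were lower and 1 higher (28.5% and 20.3%), with medians of -0.26 and -0.23 (0.04 and -0.04 over all genes). All 46 changes were negative in SW1990. In PSN1 the set did not stand apart from the table: 12 were lower and 10 higher, which is 26.1% and 21.7% of the 46 where 30.1% and 24.1% of all genes were called, with 23 changes on either side of 0 and a median of 0.00 (-0.03 over all genes). Without SW1990 RMC-6236 replicate 1, 40 were called lower in SW1990, with a median of -0.30. Lower in all 3 lines were 9 genes: POLR1A, LYAR, HEATR1, TSR1, BOP1, EBNA1BP2, FTSJ3, MRTO4 and RRP1B. Of the 12 PSN1 calls 83.3% were also called in SW1990 and 83.3% in KPC cells. In those lines 71.7% and 82.6% of all 46 genes were called, so the overlaps were near what the list lengths alone would give.

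In SW1990 RRS1 was at 9.39, 10.9 and 10.8 FPKM with RMC-6236 and at 6.78, 5.88 and 6.78 with the combination (-0.61 ± 0.06, adjusted p = 2.6e-06). NOP2 (-0.47), MRTO4 (-0.45), RRP12 (-0.39) and BYSL, a factor of small-subunit assembly (-0.40), followed. In KPC cells Ppan (-0.40), Nhp2 (-0.37), Gnl3 (-0.36), Ddx21 (-0.33) and Lyar (-0.33) were the lowest. Nhp2 there went from 28.2, 23.3 and 25.7 to 19.8, 20.0 and 19.0 FPKM (adjusted p = 7.5e-05), with no overlap. Rcl1 alone was higher in KPC cells, at 16.8, 16.6 and 17.5 FPKM with RMC-6236 and 22.4, 22.7 and 19.9 with the combination (0.33 ± 0.05, adjusted p = 0.00013), which is between the RMC-6236 and the control values of 30.4, 33.2 and 31.4.

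The genes called higher in PSN1 were NOP56, DKC1, NHP2, DDX21, RCL1, RRP9, BYSL, PNO1, PES1 and RRS1. NHP2 rose from 31.6, 32.3 and 32.4 to 38.1, 40.1 and 40.1 FPKM (0.29 ± 0.02, adjusted p = 7.1e-07), DKC1 from 16.2, 15.5 and 14.5 to 18.1, 18.8 and 18.6 (0.25 ± 0.03, adjusted p = 3.6e-05) and RRS1 from 11.7, 13.3 and 12.1 to 14.09, 15.03 and 15.25 (0.24 ± 0.05, adjusted p = 0.00068). Each stayed below its control mean, which was 57.1 FPKM for NHP2, 52.7 for DKC1 and 40.3 for RRS1. RRP1B (-0.28 ± 0.03) and NOB1 (-0.21 ± 0.04) were the lowest, the latter from 37.8, 40.4 and 41.6 to 34.3, 35.2 and 33.4 FPKM. Of the 12 lower calls 7 held whichever library was left out and 7 after rescaling by the median ratio, and of the 10 higher calls 9 held with each library left out.

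In tumours 0 of the 46 were called in either direction for this comparison (2.97% of all genes lower, 5.16% higher), with 0 lower and 1 higher at an unadjusted limma p under 0.05. The 4 combination tumours were spread widely, with shares of FPKM on the 46 genes of 0.230%, 0.241%, 0.265% and 0.327%. The last, replicate 4, was above every RMC-6236 tumour in 43 of the 46 genes and at or above the lowest control in 24. The corresponding counts were 0 and 2 for replicate 1, 1 and 3 for replicate 2, and 12 and 7 for replicate 3. The shares of all genes were not counted, so a shift of the whole library cannot be told from one of the set. Nop56 was at 24.7, 26.4, 28.9 and 44.2 FPKM in these tumours and at 28.4, 29.0, 28.6 and 22.0 with RMC-6236. Combination replicate 4 thus exceeded the highest control, 43.9. Acinar marker sums were 91.2 to 3203 FPKM in the combination tumours and 5.56 to 95.7 with RMC-6236, with 10 of 12 markers higher and the highest sum in replicate 4. All 5 neutrophil markers tested and all 5 endothelial markers were higher too, and the part of these markers in the ribosome biogenesis values was not tested.

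Against control, the combination lowered all 46 genes in each cell line, beside 37.1% of all genes in PSN1, 40.9% in SW1990 and 38.7% in KPC cells. Medians were -1.30, -1.51 and -1.05 (0.07, -0.02 and 0.00 over all genes), and the 46 genes held 0.352 ± 0.0025%, 0.148 ± 0.0012% and 0.231 ± 0.0019% of FPKM (SD, n = 3). SW1990 reached the lowest levels, with RRS1 left at 13.9% of its control and RRP9 and LYAR both at 16.9%. The arm with the lowest mean was the combination for all 46 genes in SW1990, 43 in KPC cells and 23 in PSN1. For tumours it was RMC-6236 for 25 genes, the combination for 20 and control for 1. The order of arms was not counted over all genes. In tumours 31 were lower and Bop1 higher (0.34, adjusted p = 0.0042; 25.7% of all genes lower and 26.7% higher), with a median of -0.33 (0.00 over all genes). Without combination replicate 4 the median was -0.44 and 40 were called lower, and over all single libraries left out the count ran from 27 to 40.

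Whether the effects of the drugs added up was tested by the interaction term, which is positive where the combination lies above the sum of the separate log2 changes. In PSN1, 21 of the 46 were positive and none negative (9.80% and 13.8% of all genes), with a median of 0.14 (-0.02 over all genes). DDX21 (0.29 ± 0.03, adjusted p = 2.8e-05), DKC1 (0.27), PES1 (0.27) and BYSL (0.27) were among them. DDX21 went from 63.7, 64.5 and 64.3 FPKM to 54.0, 57.3 and 55.2 with tazemetostat, but was 18.4, 18.5 and 18.6 with RMC-6236 and 19.5, 19.6 and 19.6 with the combination. In KPC cells 9 were positive and none negative (12.1% and 13.7% of all genes; median 0.09 against 0.00 over all genes), led by Rcl1 at 0.61 ± 0.07 (adjusted p = 3.8e-05) and Polr1b at 0.30 ± 0.07. In SW1990 only NOB1 was positive (0.21, adjusted p = 0.046), and BOP1 (-0.32, adjusted p = 0.0048) and NOP56 (-0.25, adjusted p = 0.0029) were negative. These were 2.17% and 4.35% of the 46, both under the 9.03% and 6.19% of all genes. The median was -0.05 (0.01 over all genes). The NOB1 call was lost in 10 of the 12 fits that left out a library and with a pseudocount of 0.1, no filter, rescaling, the replicate block or eBayes without trend and robust. The negative calls held with each library left out and became 9 without RMC-6236 replicate 1. In tumours 0 were called (1.49% of all genes positive, 0.369% negative), and 0 in either direction at an unadjusted limma p under 0.05.

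Other genes of the pathway, 115 found from a list of 119 with further polymerase I, snoRNP, processome, exosome and assembly proteins, were also mostly lower with RMC-6236. With RMC-6236, 106 of 115 were lower and 3 higher in PSN1, 111 and 1 in SW1990, 102 and 3 of 114 in KPC cells and 63 and 1 of 114 in tumours, with medians of -0.70, -0.78, -0.48 and -0.22. The lower calls were 92.2%, 96.5%, 89.5% and 55.3% of the list, beside 34.6%, 41.7%, 35.8% and 19.2% of all genes. These medians were nearer to 0 than those of the 46. POLR1G, a polymerase I subunit, fell by 2.25 in PSN1 and 2.43 in SW1990. TCOF1, the treacle protein that aids polymerase I, fell by 1.69 in PSN1 and 1.31 in KPC cells. NOP53, a large-subunit factor, was higher in all 3 lines, by 0.56 in PSN1, 0.33 in SW1990 and 0.30 in KPC cells. With tazemetostat 52, 41 and 75 of these genes were lower in PSN1, SW1990 and KPC cells and 2, 1 and 2 higher, and 0 were called in tumours. The lower calls were 45.2%, 35.7% and 65.8% of the list, beside 22.5%, 14.4% and 25.5% of all genes. For the combination against RMC-6236, 29, 38 and 59 were lower in the 3 lines and 14, 1 and 2 higher. The lower calls were 33.0% of the list in SW1990 and 51.8% in KPC cells, beside 18.3% and 28.5% of all genes. In PSN1 the lower and higher calls were 25.2% and 12.2% of the list, both under the 30.1% and 24.1% of all genes.

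MYC itself and its partners were read as the regulators usually named for this route. MYC fell with RMC-6236 in every table, from 136 ± 1.1 to 45.3 ± 1.2 FPKM in PSN1 (-1.56 ± 0.02), from 28.5 ± 0.28 to 8.64 ± 0.69 in SW1990 (-1.61 ± 0.05), from 74.4 ± 4.0 to 34.2 ± 0.79 in KPC cells (-1.10 ± 0.04) and from 61.2 ± 9.7 to 25.9 ± 6.8 in tumours (-1.24 ± 0.17, adjusted p = 8e-05). The median of the 46 genes was -0.86 in KPC cells and -0.37 in tumours. The tables were normalized separately, and how these medians relate to the MYC changes was not tested. MXD4, which competes with MYC for MAX and represses E-box genes, rose in every table, from 4.74 to 24.9 FPKM in PSN1 (2.17), from 5.11 to 21.5 in SW1990 (1.88), from 3.92 to 12.7 in KPC cells (1.48) and from 9.46 to 13.7 in tumours (0.49, adjusted p = 0.0086). MXD3 rose in PSN1 (0.50), SW1990 (0.83) and tumours (0.69) but fell in KPC cells (-1.58). Mycn was lower in tumours (-1.14, adjusted p = 0.0018) and higher in KPC cells (0.24). MAX changed by -0.17, -0.37, 0.16 and -0.12 in the 4 tables, the last not called.

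MYC was lower with tazemetostat in culture too, with changes of -0.23 in PSN1, -0.46 in SW1990 and -0.24 in KPC cells, and its tumour value was 0.28 (adjusted p = 0.74). With the combination MYC was higher than with RMC-6236 in PSN1 (0.13 ± 0.02, adjusted p = 0.00038) and lower in SW1990 (-0.14, adjusted p = 0.046) and KPC cells (-0.27, adjusted p = 0.00014). Proliferation genes also moved with RMC-6236. Of 18 tested, 18 were lower in PSN1, 12 in SW1990 and 18 in KPC cells (34.6%, 41.7% and 35.8% of all genes). In tumours 1 was lower and 2 higher (19.2% and 20.3% of all genes). For the combination against control 18, 15 and 18 were lower in PSN1, SW1990 and KPC cells (37.1%, 40.9% and 38.7% of all genes). In tumours 14 of 18 were higher and 0 lower (26.7% and 25.7% of all genes), with a median of 0.37. There 31 of the 46 ribosome biogenesis genes were lower. With tazemetostat, 12, 0 and 8 of the 18 were lower in PSN1, SW1990 and KPC cells (22.5%, 14.4% and 25.5% of all genes). In these lines 1, 4 and 0 were higher (23.6%, 23.1% and 18.6%). For the combination against RMC-6236, 17, 14 and 17 were lower (30.1%, 18.3% and 28.5% of all genes) and 0 higher. The part of the proliferation genes, and that of MYC, in the ribosome biogenesis values was not tested.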

How the data were processed

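RNA, isolated with RNAiso Plus and checked on gels and by Qubit, went into VAHTS stranded mRNA libraries for a NovaSeq instrument, per the labels' protocols. The submitters' processing notes list StringTie 1.3.1c, STAR 2.5.3a and FastQC 0.11.2, with hg38 for all samples; the build used for mouse samples, which carry mouse gene identifiers, and the strand setting are not given in the sources used here. The authors deposited FPKM values in separate tables for each cell line and for tumours, and reads of genes that overlap or have near-identical copies (such as the pseudogenes of NPM1) may be divided between them. Columns were assigned from the sample names, with 0 left unmapped and 0 identical columns.

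Values were taken to log2(FPKM + 1), and genes with 1 FPKM or more in at least 3 (cells) or 4 (tumours) libraries were tested. limma 3.58.1 (R 4.3.3, with statmod 1.5.0) estimated arm means in each table from all 4 arms, using the trend and robust options of eBayes, and gave 5 contrasts. P-values are two-sided and adjusted by the Benjamini-Hochberg method over all genes of the table and contrast. No test was made between tables. The 46 members and the lists (other pathway genes, MYC network, proliferation, cell type markers) were chosen with earlier results of these data known. Any member could be named. Values per sample were given for a fixed set of 20 members and for the 3 lowest and 3 highest changes with RMC-6236 in each table, and for other contrasts the called members that changed most (at most 5). Other pathway genes were limited to 3 called per direction and table, and other lists were described by counts, sums and defining markers, with all of the MYC network open to naming. A few members outside these limits were named after their values were seen.

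The fit was tested on simulated data built on each table. Of 100 added changes of 0.5 log2 units, it recovered 98 in PSN1, 93 in SW1990, 95 in KPC cells and 80 in tumours. Counts of calls in tumours and in cells are therefore not on an equal footing. Alternatives were a pseudocount of 0.1, no filter, rescaling by the median ratio, removal of mitochondrial genes, a replicate block, plain eBayes (no trend, not robust), a fit of only the arms compared, and each library left out in turn. Figures were drawn with matplotlib 3.10.9 from tables written with pandas 2.3.3.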

Additional observations from a re-analysis of the deposited data

Results flagged for a closer look

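In tumours, arms of 4 libraries were searched for a library far from the other 3, by the gap to its nearest neighbour as a share of the arm's range against Dixon's critical value at 95%. The 46 genes and their summed share of FPKM in 4 arms gave 188 groups, of which 20 had one. Chance gives about 1 in 20 for independent groups. These groups share the same 16 libraries and are not independent, so the 20 cannot be judged against that rate. Among controls these were all replicate 2, high, for Wdr3 (0.950), Utp4 (0.890), Bysl (0.835), Nop2 (0.980) and Ppan (0.938). With RMC-6236 they were replicate 4, low, for Nop56 (0.918), Nolc1 (0.904), Utp4 (0.881) and Nop2 (0.900), replicate 1, high, for Mybbp1a (0.844) and Heatr1 (0.895), and replicate 3, high, for Wdr3 (0.882). With the combination they were replicate 4, high, for Wdr12 (0.924), Rrs1 (0.830), Brix1 (0.911) and Ebna1bp2 (0.880). With tazemetostat they were Wdr43 in replicate 4, low (0.833), Heatr1 in replicate 3, high (0.886), Ppan in replicate 1, high (0.856), and Nip7 in replicate 3, high (0.875).

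For 18 genes and contrasts, every treated sample of one model lay to one side of its controls and every treated sample of another to the opposite side, whether or not the change passed the limma test. These differences of log2 changes, given as the second model minus the first, were not tested. The search covered the 46 genes alone, so the share of all genes with such opposite changes is unknown. With tazemetostat, 4 genes were called lower in KPC cells, while their tumour values lay above the controls without passing the test (smallest adjusted p of the 46 in limma, 0.65): FBL (0.50), NHP2 (0.48), RRP12 (0.44) and NIP7 (0.41). With tazemetostat NHP2 was called higher in PSN1 and had a change of -0.15 in SW1990 that did not pass (limma adjusted p = 0.068), a difference of -0.28. BOP1 was called lower in PSN1 and had a change of 0.06 in SW1990 that did not pass (limma adjusted p = 0.30), a difference of 0.23. BOP1 was lower in KPC cells and higher in KPC tumours with RMC-6236 (1.14) and with the combination against control (1.37). For the combination against RMC-6236, 10 genes were higher in PSN1 and lower in SW1990: RRS1 (-0.85), BYSL (-0.57), DKC1 (-0.56), NHP2 (-0.56), PNO1 (-0.49), NOP56 (-0.43), RCL1 (-0.41), DDX21 (-0.40), RRP9 (-0.39) and PES1 (-0.28). Over all genes, 24.1% were called higher by limma in PSN1 and 18.3% lower in SW1990 for this comparison, and of the 46, 21.7% and 71.7%. These are shares of calls within each line, not of genes on opposite sides in both.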

How the results depend on the processing

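Over all genes, contrasts and alternatives, 13058 member results kept their side of the threshold, 244 lost a call, 130 gained one and 0 called changes turned sign. In cells, the lower calls with RMC-6236 (46, 46 and 45) stayed within 1.5 times under all alternatives run, as did the other counts not named next. For PSN1 cells, the 12 lower calls of the combination against RMC-6236 became 7 with rescaling and 7 with only the arms compared, and 7 to 10 with 1 library left out. For the SW1990 interaction, the 2 lower calls became 5 with a pseudocount of 0.1, 5 with rescaling and 8 without mitochondrial genes, and 2 to 9 with 1 library left out, and the 1 higher call became 0 with a pseudocount of 0.1, no filter, rescaling, the replicate block or eBayes without trend and robust, and 0 to 1 with 1 library left out. In tumours, leaving out 1 library gave 0 to 1 higher calls with RMC-6236 and 0 to 1 for the combination against RMC-6236, and 27 to 40 lower calls for the combination against control (31 with all). The cause of these changes was not tested. Correlations of same-numbered deviations ran from -0.05 to 0.16 in PSN1 and -0.16 to 0.39 in SW1990. They ran from -0.09 to 0.13 among KPC cells and -0.40 to 0.34 among tumours. Different-numbered ones ran from -0.15 to 0.09, -0.33 to 0.20, -0.10 to 0.14 and -0.41 to 0.46 in the same order. Arms of 3 or 4 libraries are too small to exclude that same replicate numbers pair the samples. With the replicate block, lower calls with RMC-6236 were 46, 46, 45 and 32 and higher calls of the interaction 20, 0, 8 and 0. The interaction has no value with only the arms compared, since it needs all 4. FPKM keep no depth, so precision is known only from 3 or 4 libraries an arm.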
